A study of Mus musculus with 12 samples.

Results

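The 10 genes described here encode receptors, a transcription factor and a chemokine by which natural killer (NK) cells are recognized and regulated: Ncr1, Klrb1c, Klrk1, Klrd1, Klrc1, Klrc2, Klrg1, Klre1, Eomes and Xcl1. They were taken by gene symbol from an expression table of 18211 genes, in which all 10 were present, and were followed across 12 MC38 tumors. MC38 is a mouse colorectal adenocarcinoma cell line, and the cells were grown under the skin of female C57BL/6 mice that were 5 weeks old when purchased. Grouping took place on day 7, after which CK mice received the vehicle, PB-020 mice received the IGF-1R inhibitor PB-020 by mouth at 50 mg/kg per day, anti-PD-1 mice received the antibody RMP1-14 by intraperitoneal injection at 200 μg per mouse on days 9, 12, 15 and 18, and PB-020/anti-PD-1 mice received both. Each group held 3 tumors, and the tumors were sequenced as bulk tissue, so that tumor cells, immune cells and stroma of the host contributed to the same library. The labels do not say that the 3 tumors of a group were from separate mice, so the p values measure the spread between these samples.

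NK cells are lymphocytes that kill without a rearranged antigen receptor. Whether an NK cell kills depends on the balance between activating receptors, which couple to adaptors such as Tyrobp and Hcst, and inhibitory receptors that recognize MHC class I molecules or cadherins. Many of these receptors are C-type lectin-like proteins encoded side by side in the NK gene complex, and several of them, NKG2D and CD94 among them, are also carried by activated CD8 T cells. In bulk tissue, fewer cells of a type and less RNA per cell cannot be told apart.

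Depth lay between 16545394 and 17217035 expected counts per library, and 10 counts corresponded to about 0.591 CPM. Of the 10 genes, 9 passed the filter on low counts and were tested among 13563 genes, and Klrc2 did not pass. The table held further signals that moved with single tumors. The skeletal muscle markers summed to 1114 TPM in anti-PD-1 tumor 1 and to 18.5 to 109.5 TPM in the other 11 tumors, and the neutrophil markers summed to 738 TPM in CK tumor 3 and to at most 54.7 TPM elsewhere. Anti-PD-1 tumor 1 also had the highest sum of T cell markers (233.2 TPM), macrophage markers (2563 TPM) and fibroblast markers (1776 TPM). The epithelial markers summed to only 4.32 to 7.8 TPM, and Krt18 was listed at 0 in 7 libraries, so the carcinoma label of MC38 was not reflected in keratin transcripts. The part of these signals in the results below was not tested. For anti-PD-1 and the combination against CK, the calls of the tested genes are given with and without these tumors. For the lists of other NK genes, the total with anti-PD-1 is also given without anti-PD-1 tumor 1. The T cell marker calls and sums, the ratios to T cell receptor genes and the correlations are given with all tumors only.

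The largest levels per unit of transcript length belonged to Klrd1, which encodes CD94, the partner chain of the NKG2 receptors. Klrd1 ranked highest of the 10 genes in every group by mean TPM, with 5.51 ± 1.5 in CK tumors, 7.41 ± 2.77 under PB-020, 12.8 ± 6.53 under anti-PD-1 and 20.4 ± 4.96 under both (SD, n = 3 each). Klrc2 ranked lowest in every group, with means from 0.307 to 0.803 TPM. In CK tumors each gene overlapped in TPM with the next one in the order (Klrd1, Xcl1, Eomes, Klrc1, Klrk1, Ncr1, Klrg1, Klrb1c, Klre1, Klrc2) except Klrb1c, whose range lay above that of Klre1. In the combination, Klrd1 stood above Klrc1 without overlap, as did Klrk1 above Eomes, Ncr1 above Klrg1 and Klrb1c above Klrc2.

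In the combination, 4 genes rose against CK: Klrd1, Klre1, Klrk1 and Klrc1, by 3.41-fold to 4.24-fold. They encode CD94, the lectin-like receptor chain that pairs with Klri1 and Klri2, the activating receptor NKG2D and the inhibitory chain NKG2A. By edgeR's quasi-likelihood test at an adjusted p under 0.05, 4 of the 9 tested genes were raised and 0 were lowered, where 8.35% of all genes tested were raised. The median log2 change of the 9 genes was 1.25, beside -0.003 over all genes tested. Ncr1, Klrb1c, Klrg1 and Xcl1 had higher means than in CK and did not pass the test, and Eomes was within the spread between tumors.

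Klrd1 encodes the chain shared by the CD94/NKG2 heterodimers and lies on chromosome 6 at 129588092 to 129598775 (gene 16643, GRCm38.p6). Klrd1 had 38, 32 and 51 expected counts in the CK tumors, 58, 38 and 82 in PB-020, 143, 64 and 70 in anti-PD-1 and 116, 207 and 158 in the combination. The lowest combination tumor, at 116, stood far above the highest CK tumor, at 51, while the PB-020 tumors overlapped with CK. Klrd1 rose from 3.06 ± 0.851 FPKM in CK to 11.9 ± 3.27 in the combination (SD, n = 3), a log2 change of 2.03 ± 0.37 (SE; edgeR adjusted p = 0.00499). With anti-PD-1 alone its log2 change was 1.21 ± 0.37 with an edgeR adjusted p of 0.0612, although all 3 tumors lay above all 3 CK tumors.

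Klre1, whose product pairs with Klri1 or Klri2 to form receptors of opposite sign, lies beside it at 129559365 to 129585828 (gene 243655). Klre1 had 10, 8 and 9 expected counts in CK tumors, 13, 10 and 14 with PB-020, 40, 25 and 19 with anti-PD-1 and 23, 43 and 47 with both. All anti-PD-1 and combination tumors were above all CK tumors, and the CK counts were too few for a precise ratio. The log2 change was 1.65 ± 0.38 with anti-PD-1 (edgeR adjusted p = 0.0224) and 2.09 ± 0.38 with the combination (edgeR adjusted p = 0.00433). The partner genes, in the list of other NK receptors, moved likewise in the combination: Klri1 rose by 1.38 ± 0.36 and Klri2 by 1.30 ± 0.38 on the log2 scale (edgeR adjusted p = 0.0208 and 0.0314).

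Klrk1 encodes NKG2D, an activating receptor for stress-induced ligands of the Raet1, H60 and Ulbp1 families, and lies at 129610323 to 129623903 (gene 27007). Klrk1 had 73, 45 and 61 expected counts in CK tumors, 92, 49 and 80 with PB-020, 222, 113 and 127 with anti-PD-1 and 156, 241 and 198 with both. No tumor of either group that received anti-PD-1 was as low as a CK tumor. The log2 change was 1.39 ± 0.30 with anti-PD-1 (edgeR adjusted p = 0.0201) and 1.77 ± 0.30 with the combination (edgeR adjusted p = 0.00422). For Klrk1 the ratio of count to FPKM, which reflects the transcript length RSEM used in each library, ran from 1936 bases in CK tumor 1 to 3119 in anti-PD-1 tumor 2, a ratio of 1.61. On log2(FPKM + 1) the anti-PD-1 change of Klrk1 was 0.89 and did not pass (limma adjusted p = 0.0837). With log2(FPKM + 0.1) it was 1.18 (limma adjusted p = 0.0775). The anti-PD-1 changes of Klre1, Klrd1 and Klrc1 on log2(FPKM + 1), at 0.82, 0.92 and 1.07, were also below those from counts. The part of transcript length in the Klrk1 value was not tested.

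Klrc1 encodes NKG2A, which with CD94 forms an inhibitory receptor for the nonclassical class I molecule encoded by H2-T23, and lies at 129666015 to 129682852 (gene 16641). Klrc1 had 78, 53 and 63 expected counts in CK tumors, 73, 40 and 86 with PB-020, 270, 129 and 132 with anti-PD-1 and 168, 281 and 199.95 with both. The PB-020 tumors overlapped with CK, with 1 below and 1 above all CK tumors, and every anti-PD-1 and combination tumor was above them. The log2 change was 1.47 ± 0.35 with anti-PD-1 (edgeR adjusted p = 0.0301) and 1.78 ± 0.35 with the combination (edgeR adjusted p = 0.00815). H2-T23 itself had a log2 change of 0.62 ± 0.27 in the combination and did not pass (edgeR adjusted p = 0.144).

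Klrc2 encodes NKG2C, the activating counterpart of NKG2A, at 129649602 to 129660737 (gene 16642). Klrc2 had 0, 6 and 0 expected counts in CK tumors, 5, 1 and 2 with PB-020, 6.42, 4 and 2.99 with anti-PD-1 and 3, 6 and 7.72 with both, so a difference was not detectable at this depth. Counts that are not whole arise where RSEM divides a read between genes, and Klrc1 and Klrc2 share much sequence. Of the 2030 windows of 50 bases in Klrc1 transcripts, 36.5% also occur in Klrc2 transcripts, as do 33.0% of those of Klrc3. Aligned from the stop codon without gaps, the final 100 coding bases of both genes are the same. The last 60 of them (GENCODE M21, minus strand, stop codon not included, chr6:129674862-129674921 in Klrc1 and chr6:129656374-129656433 in Klrc2) are shown because this stretch alone does not tell the genes apart:
Klrc1: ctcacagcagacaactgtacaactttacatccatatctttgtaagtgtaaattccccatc
Klrc2: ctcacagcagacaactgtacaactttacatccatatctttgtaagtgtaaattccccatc
The bases 61 to 120 from the end contain 2 differences, given in capitals below, and cross an exon boundary in both genes:
Klrc1: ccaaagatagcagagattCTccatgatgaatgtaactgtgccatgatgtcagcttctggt
Klrc2: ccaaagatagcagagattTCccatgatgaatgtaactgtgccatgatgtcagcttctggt
The only Klrc1 count that was not whole was 199.95, in combination tumor 3. For Klrc2 they were 6.42 and 2.99 in anti-PD-1 tumors 1 and 3, and 7.72 in combination tumor 3. How shared reads were divided is uncertain for these values, and its part in the whole counts was not tested. Reads of 150 bases can extend past the stretches shown. As deposited, Klrc2 had at most 7.72 counts in a tumor and Klrc1 between 40 and 281.

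**Figure D1:**
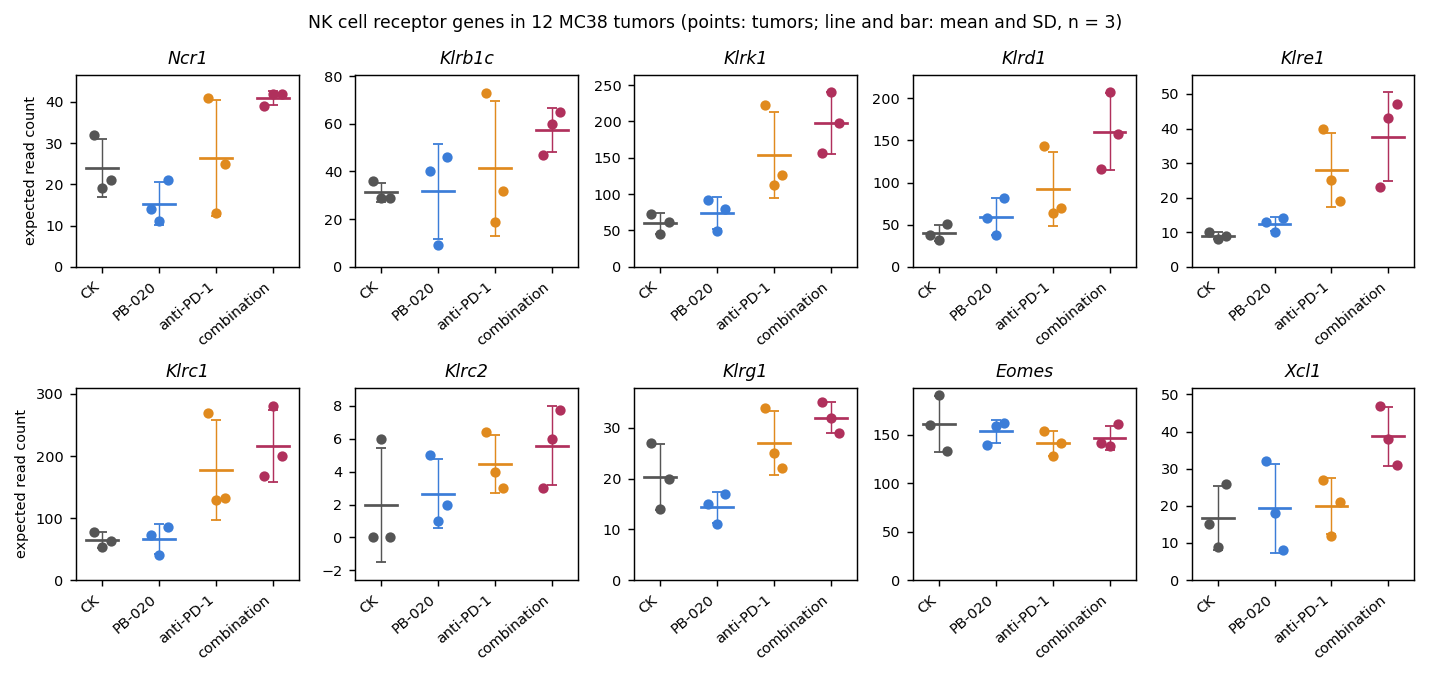
Expected read counts (y axis, linear, per gene its own scale) of the 10 genes in the 3 tumors of each group (x axis); points are tumors, horizontal lines means and bars SD. Klrk1, Klrd1, Klre1 and Klrc1 are higher in every combination tumor than in every CK tumor, while Eomes stays between 128 and 191 counts in all 12 tumors.

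The receptors by which NK cells themselves are usually identified, Ncr1 and Klrb1c, did not pass the test. Ncr1 encodes the activating receptor NKp46, a receptor largely restricted to NK cells and related innate lymphoid cells, at chromosome 7, 4337715 to 4345184 (gene 17086). Ncr1 had 32, 19 and 21 expected counts in CK tumors, 14, 11 and 21 with PB-020, 41, 13 and 25 with anti-PD-1 and 39, 42 and 42 with both. The combination tumors were close together and above all CK tumors, whereas the anti-PD-1 tumors spanned the whole CK range. The log2 change of Ncr1 was 0.81 ± 0.38 in the combination (edgeR adjusted p = 0.147), 0.16 ± 0.38 with anti-PD-1 (edgeR adjusted p = 0.828) and -0.62 ± 0.40 with PB-020 (edgeR adjusted p = 0.88). Fitted on the combination and CK tumors only, Ncr1 passed narrowly (edgeR adjusted p = 0.0487).

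Klrb1c encodes NK1.1, the marker by which NK cells of C57BL/6 mice are commonly sorted, and lies at chromosome 6, 128778485 to 128788641 (gene 17059). Klrb1c had 36, 29 and 29 expected counts in CK tumors, 40, 9 and 46 with PB-020, 73, 19 and 32 with anti-PD-1 and 47, 60 and 65 with both. Its 3 combination tumors were above the CK tumors, and the PB-020 and anti-PD-1 groups each held 1 tumor below all CK tumors. The log2 change in the combination was 0.90 ± 0.52 (edgeR adjusted p = 0.24), and 0.0153 when only these groups were fitted. Leaving out anti-PD-1 tumor 1 turned the anti-PD-1 changes of Ncr1 and Klrb1c from 0.16 and 0.42 to -0.30 and -0.26 on the log2 scale, and neither passed with or without it.

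Klrg1, an inhibitory receptor for cadherins that marks mature NK cells and short-lived effector T cells, lies at chromosome 6, 122270596 to 122282833 (gene 50928), outside the cluster of the other receptors. Klrg1 had 27, 14 and 20 expected counts in CK tumors, 15, 11 and 17 with PB-020, 34, 25 and 22 with anti-PD-1 and 35, 32 and 29 with both. The combination tumors were above CK by a narrow margin, and the log2 change of 0.69 ± 0.31 did not pass (edgeR adjusted p = 0.135).

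Eomes encodes a T-box transcription factor of NK cell maturation that effector and memory CD8 T cells also use, at chromosome 9, 118478186 to 118486132 (gene 13813). Eomes had 160, 191 and 133 expected counts in CK tumors, 140, 159 and 162 with PB-020, 154, 128 and 142 with anti-PD-1 and 142, 138 and 161 with both. The 4 groups overlapped, and the log2 change in the combination was -0.10 ± 0.14 (edgeR adjusted p = 0.659), the smallest SE of the 9 genes. Tbx21, the related T-box factor T-bet, rose by 1.59 ± 0.42 on the log2 scale in the same comparison (edgeR adjusted p = 0.0202).

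Xcl1 encodes a chemokine released by NK cells and CD8 T cells that attracts cross-presenting dendritic cells through the receptor Xcr1, and lies at chromosome 1, 164931644 to 164935522 (gene 16963). Xcl1 had 15, 9 and 26 expected counts in CK tumors, 32, 18 and 8 with PB-020, 27, 12 and 21 with anti-PD-1 and 47, 38 and 31 with both. All combination tumors were above all CK and all anti-PD-1 tumors, and the log2 change against CK was 1.24 ± 0.48 (edgeR adjusted p = 0.0847; 0.0222 when only these groups were fitted). Its receptor gene Xcr1 rose from 0.233 ± 0.0451 to 0.483 ± 0.133 FPKM (SD, n = 3; log2 change 1.08 ± 0.33, edgeR adjusted p = 0.0378).

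**Figure D2:**
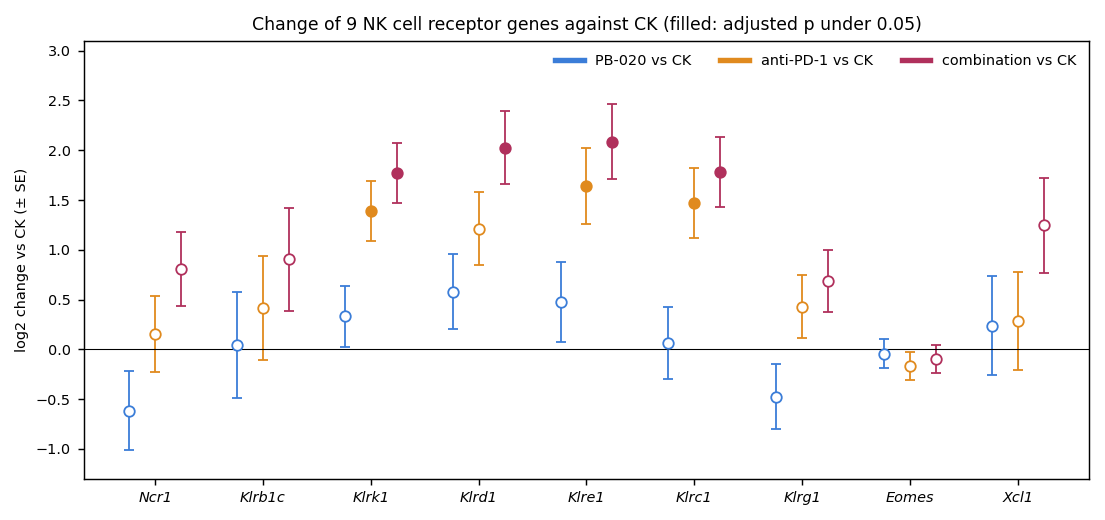
Log2 change against CK (y axis, edgeR, bars SE) of the 9 tested genes (x axis) after each treatment, PB-020, anti-PD-1 or both, with filled points for an adjusted p under 0.05. The 4 filled combination points lie between 1.77 and 2.09, the 3 filled anti-PD-1 points between 1.39 and 1.65, and none of the PB-020 points is filled.

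For PB-020 alone against CK, none of the 9 genes passed edgeR's test, where 0.0% of all genes did. At an unadjusted p under 0.05 the count was also 0 of 9, beside 5.46% of all genes. DESeq2 called 0 as well, where it called 6 of 13563 genes. The smallest unadjusted p was 0.146, for Ncr1 and for Klrd1. Ncr1 and Klrg1 were lower in the mean, with log2 changes of -0.62 ± 0.40 and -0.47 ± 0.33, and Klrd1 was higher by 0.58 ± 0.37. The 3 Klre1 counts of PB-020 (13, 10 and 14) reached but did not clear the highest CK count of 10, although all 3 were above CK after scaling for library size. Klre1 was the 1 gene of 9 with this order, which 7.78% of all genes had, so the count is near the background.

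For anti-PD-1 alone against CK, Klrk1, Klrc1 and Klre1 rose by 2.62-fold, 2.77-fold and 3.13-fold. These were 3 of 9 genes, where 4.18% of all genes tested were raised and 8.26% changed in either direction, and 4 of 9 had all 3 tumors above all 3 CK tumors, where 13.9% of all genes did. The anti-PD-1 group was uneven, because tumor 1 had the highest count of the 3 tumors for 10 of 10 genes, and it was the tumor with the muscle transcripts. Without it Klrk1 was the 1 gene that passed, without CK tumor 2 or CK tumor 3 the count was 0, and with only the anti-PD-1 and CK tumors fitted it was 0. The share of all genes called in those fits was lower as well, at 4.57%, 0.996%, 4.65% and 0.0226% in the same order. The log2 changes were 1.04 for Klrk1, 1.05 for Klrc1 and 1.31 for Klre1 without anti-PD-1 tumor 1, and 1.22 to 1.40, 1.35 to 1.47 and 1.57 to 1.65 in the other 3 fits. DESeq2 called 4 genes, the 3 above and Klrd1 (DESeq2 adjusted p = 0.0154), where it called 1668 of 13563 genes in either direction.

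Against CK, the 4 calls of the combination were made whichever tumor was left out. Each of Klrd1, Klrk1 and Klrc1 passed in all 21 fits, the one reported and 20 alternatives, with log2 changes of 1.66 to 2.24, 1.31 to 1.94 and 1.37 to 1.94, and Klre1 passed in all 20 fits in which it was tested, with 1.13 to 2.34. Of the 9 genes, 8 had all 3 combination tumors above all 3 CK tumors, where 19.6% of all genes did. At a fold change over 1.5 and an unadjusted p under 0.05 the count was 7 of 9, where 4.95% of all genes were raised, the 3 added genes being Ncr1, Klrg1 and Xcl1. Fitted on these groups alone the count was also 7 of 9, with Ncr1, Klrb1c and Xcl1 added. That fit called 2988 of 13290 genes in either direction, beside 2434 of 13563 in the reported fit.

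Whether PB-020 added to anti-PD-1 was asked by comparing the combination with anti-PD-1 alone. None of the 9 genes passed edgeR's test and 0.0% of all genes did, while 1 of 9 had an unadjusted p under 0.05 (7.26% of all genes did). DESeq2 called 0 of the 9, where it called 1 of 13563 genes. All 9 were higher in the mean, with a median log2 difference of 0.44 beside -0.022 over all genes. The largest differences were those of Xcl1 and Klrd1, with Klrd1 at 0.81 ± 0.34 (unadjusted p = 0.0357, edgeR adjusted p = 0.664) and Xcl1 at 0.96 ± 0.47 (edgeR adjusted p = 0.70), the 1 gene of 9 whose groups did not overlap, where 4.33% of all genes had all 3 combination tumors on top. The interaction, which is the combination minus both single treatments plus CK on the log2 scale, passed for 0 of 9 genes, where 0.0% of all genes passed, and 1 of 9 had an unadjusted p under 0.05, where 2.29% did. Its largest value was that of Ncr1, 1.27 ± 0.55 (unadjusted p = 0.0365, edgeR adjusted p = 1.0), whose mean was below CK with PB-020 alone and above CK with both drugs.

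Against PB-020 alone, 4 genes rose in the combination, where 1.25% of all genes tested were raised, 2.11% lowered and 3.35% changed in either direction. The combination tumors were those of the comparison with CK. Klrk1, Klrd1, Klrc1 and Klre1 rose by 2.71-fold, 2.72-fold, 3.29-fold and 3.05-fold (edgeR adjusted p = 0.0308, 0.0487, 0.0332 and 0.0352). Ncr1 and Klrg1 followed with 1.42 ± 0.39 and 1.16 ± 0.32 on the log2 scale (edgeR adjusted p = 0.0609 and 0.0611). At a fold change over 1.5 and an unadjusted p under 0.05 the count was 6 of 9, where 3.89% of all genes were raised. In 7 of 9 genes all combination tumors were above all PB-020 tumors, where 14.6% of all genes did so. Leaving out any 1 of the 6 tumors of these groups (PB-020 tumors 1, 2 and 3, and combination tumors 1, 2 and 3) brought the count to 0, with edgeR adjusted p values of 0.0512 to 0.176, while the share of all genes called went to between 0.0% and 2.89%. The log2 changes in those 6 fits were 1.22 to 1.64 for Klrk1, 1.20 to 1.75 for Klrd1, 1.46 to 1.95 for Klrc1 and 1.44 to 1.86 for Klre1.

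The raised genes were neighbours on the chromosome. From the start of Klrb1c to the end of Klrc1, 904.4 kb of chromosome 6 hold 26 protein-coding genes, of which 6 are on the list. Klre1, Klrd1, Klrk1, Klrc2 and Klrc1 lie together within 123.5 kb, with Klrc3 between them, and the 4 tested ones were the genes raised in the combination. Of the 20 other genes, 13 were tested: Clec2i, Cd69 and Clec12a rose, by 1.497, 1.098 and 0.891 on the log2 scale, Gabarapl1 fell by 0.49, and the other 9 did not pass. Over all genes tested, 8.35% rose and 9.6% fell in this comparison. Klrc3 had a log2 change of 1.71 ± 0.68 (edgeR adjusted p = 0.0953). Cd69 is an early activation marker of lymphocytes, Clec12a an inhibitory receptor of myeloid cells, and Gabarapl1, next to Klre1, belongs to the autophagy machinery. Genes on the same stretch thus rose, fell or did not pass.

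**Figure D3:**
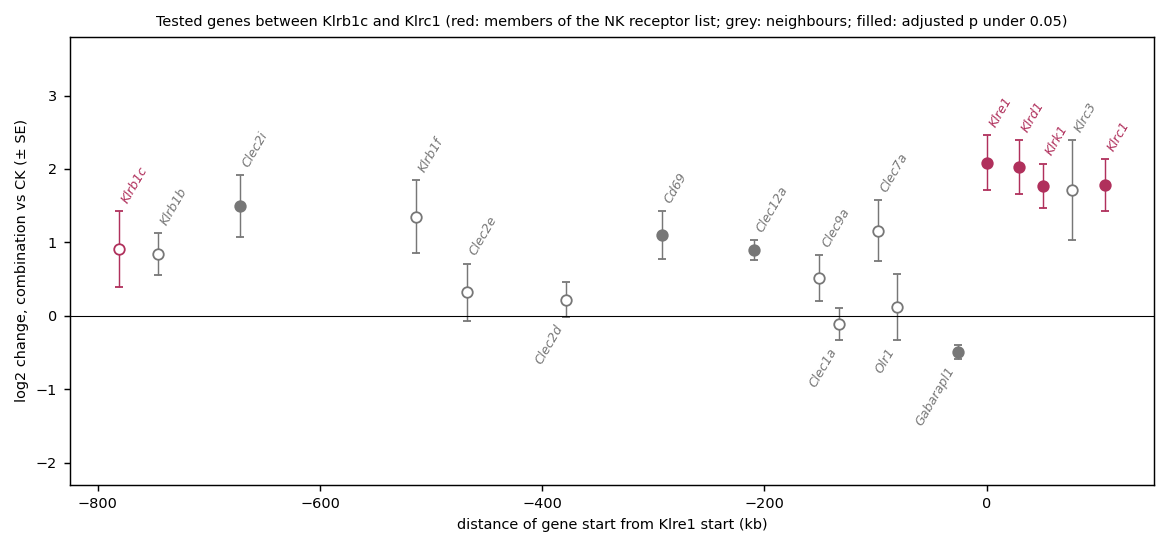
Log2 change of the combination against CK (y axis, bars SE) of the 18 tested genes between Klrb1c and Klrc1, by the distance of each gene start from that of Klre1 in kb (x axis), with listed genes in red, others in grey and filled points for an adjusted p under 0.05. The 4 filled red points at the right lie between 1.77 and 2.09, and Gabarapl1, next to them, lies at -0.49.

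The promoters of 4 of the 10 genes are shown, 3 that rose in the combination and Ncr1, which did not pass the test. RefSeq start sites (GRCm38.p6) were matched for 8 of the 10 genes, Klrd1 and Klrg1 being without an entry, and each sequence runs from 250 bases before to 50 bases after the start. For Klrc1 and Klre1 these sequences lie inside the gene spans given above, so the outermost ends of these genes are not shown. The capitals mark the RUNX motif TGTGGT or its reverse complement ACCACA. Ncr1 is at chr7:4337465-4337764 (plus strand), Klrk1 at chr6:129623815-129624114 (minus strand), Klrc1 at chr6:129678924-129679223 (minus strand) and Klre1 at chr6:129577963-129578262 (plus strand):
Ncr1: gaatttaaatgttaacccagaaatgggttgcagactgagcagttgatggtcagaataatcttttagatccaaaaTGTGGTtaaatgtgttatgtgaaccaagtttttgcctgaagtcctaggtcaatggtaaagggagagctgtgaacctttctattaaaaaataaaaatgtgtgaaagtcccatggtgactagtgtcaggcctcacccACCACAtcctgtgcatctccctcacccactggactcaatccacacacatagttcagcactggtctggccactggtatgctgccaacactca
Klrk1: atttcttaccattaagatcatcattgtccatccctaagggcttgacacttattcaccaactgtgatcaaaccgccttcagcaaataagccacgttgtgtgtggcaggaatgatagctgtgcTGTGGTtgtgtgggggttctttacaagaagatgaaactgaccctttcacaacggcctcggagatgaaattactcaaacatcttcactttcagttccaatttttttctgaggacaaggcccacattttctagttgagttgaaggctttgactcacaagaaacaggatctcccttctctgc
Klrc1: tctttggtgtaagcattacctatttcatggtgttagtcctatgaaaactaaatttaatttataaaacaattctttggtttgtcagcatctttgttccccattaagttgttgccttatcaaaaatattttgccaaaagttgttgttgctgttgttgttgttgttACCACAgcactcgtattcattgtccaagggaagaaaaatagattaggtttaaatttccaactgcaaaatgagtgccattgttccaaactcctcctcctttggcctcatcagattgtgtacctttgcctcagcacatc
Klre1: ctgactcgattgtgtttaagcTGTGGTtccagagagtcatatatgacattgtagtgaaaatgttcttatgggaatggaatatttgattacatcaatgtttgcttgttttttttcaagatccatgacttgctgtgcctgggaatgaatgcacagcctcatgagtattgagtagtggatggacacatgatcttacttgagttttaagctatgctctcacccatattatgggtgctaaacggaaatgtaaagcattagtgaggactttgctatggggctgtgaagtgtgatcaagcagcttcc
The motif began 176 and 41 bases before the start in Ncr1, 129 before it in Klrk1, 87 in Klrc1 and 229 in Klre1, where the sequence of a later start site did not hold it. It was found in 7 of the 8 genes, Eomes being the exception, and 16.9% of 27025 promoters of the same length hold it. A gene was counted if any of its start sites held the motif, whereas the 16.9% is a share of promoters. The T-box motif TCACACC was found in Xcl1 (3.96% of promoters), and the STAT motif TTCNNNGAA (8.47%) and the ETS motif CCGGAA (15.2%) were found in none of the 8. Ncr1, Klrb1c and Xcl1, which did not pass the test, hold the RUNX motif as well. Runx3, a RUNX factor of NK and CD8 T cells, rose from 2.68 ± 0.289 to 4.36 ± 0.325 FPKM in the combination (SD, n = 3; log2 change 0.73 ± 0.15, edgeR adjusted p = 0.00815). Whether a RUNX factor acts on these genes was not tested.

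T cell genes moved in the same comparisons. Of 11 T cell markers, 8 rose with anti-PD-1 and 9 with the combination, where 4.18% and 8.35% of all genes rose. The exceptions in the combination were Cd4 and Thy1. The 11 markers summed to 65.9 to 88.3 TPM in CK and 80.9 to 94.1 in PB-020. The sums were 109 to 233.2 in anti-PD-1 and 119.7 to 167 in the combination, and no marker was at 0 in any tumor. Cd3e, a chain of the T cell receptor complex, rose by 1.87 ± 0.40 and Cd8b1 by 1.86 ± 0.41 on the log2 scale in the combination (edgeR adjusted p = 0.00848 and 0.0123), close to the changes of Klrk1 and Klrc1. The part of T cells in the changes of the NK receptor genes was not tested. In the combination, 2 of 5 markers of cross-presenting dendritic cells rose, where 8.35% of all genes rose. The fibroblast markers were divided. Dcn and Pdgfra, 2 of 5, fell, where 9.6% of all genes fell. Col1a1, Col1a2 and Lum did not pass and had higher means, at 153, 214 and 21.4 FPKM beside 93.1, 174 and 6.72 in CK. No tested marker of macrophages, B cells, neutrophils, endothelium, muscle or epithelium passed edgeR's test. The B cell markers summed to 0.64 to 2.7 TPM in all tumors.

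Set against the T cell receptor chains, the genes differed in pattern. Per 100 expected counts of Cd3d, Cd3e and Cd3g together (76 to 122 counts in CK and 228 to 415 in the combination), Klrk1 had 58.9 ± 8.8 counts in CK and 61.7 ± 5.79 in the combination, and Klrc1 had 64.5 ± 11.2 and 66.9 ± 7.21 (SD, n = 3). Cd3g supplied most of this denominator, with 45 to 81 counts in CK and 138 to 240 in the combination. From CK to the combination, mean FPKM went from 0.813 to 3.71 for Cd3d, 0.873 to 3.19 for Cd3e and 4.54 to 12.7 for Cd3g. Ncr1 had 23.9 ± 6.27 in CK and 13.2 ± 3.55 in the combination, Klrb1c 31.8 ± 7.32 and 18.1 ± 3.24, and Klrg1 19.9 ± 4.5 and 10.6 ± 4.18. Klrd1 had 39.7 ± 3.91 in CK and 49.2 ± 2.08 in the combination, without overlap, and Klre1 9.05 ± 1.58 and 11.5 ± 2.15. With PB-020 alone Klrd1 had 39.9 ± 9.04, which overlapped with CK and the combination. With anti-PD-1 alone it had 32.3 ± 2.32, with all 3 tumors below CK. The ratios of Ncr1 and Klrg1 were also below CK with PB-020 alone, at 10.4 ± 1.97 and 9.8 ± 0.62, and with anti-PD-1 alone, at 9.13 ± 2.8 and 10.2 ± 2.95, so lower values were not particular to the combination. These ratios are a description without a test, and they depend on the denominator. The combination-to-CK quotient was 0.552 for Ncr1 and 1.05 for Klrk1 with the Cd3 genes, 0.628 and 1.19 with Cd8a and Cd8b1, and 1.01 and 1.93 with the other 8 T cell markers, of whose counts Thy1 supplied 71.6% in CK and 56.2% in the combination.

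**Figure D4:**
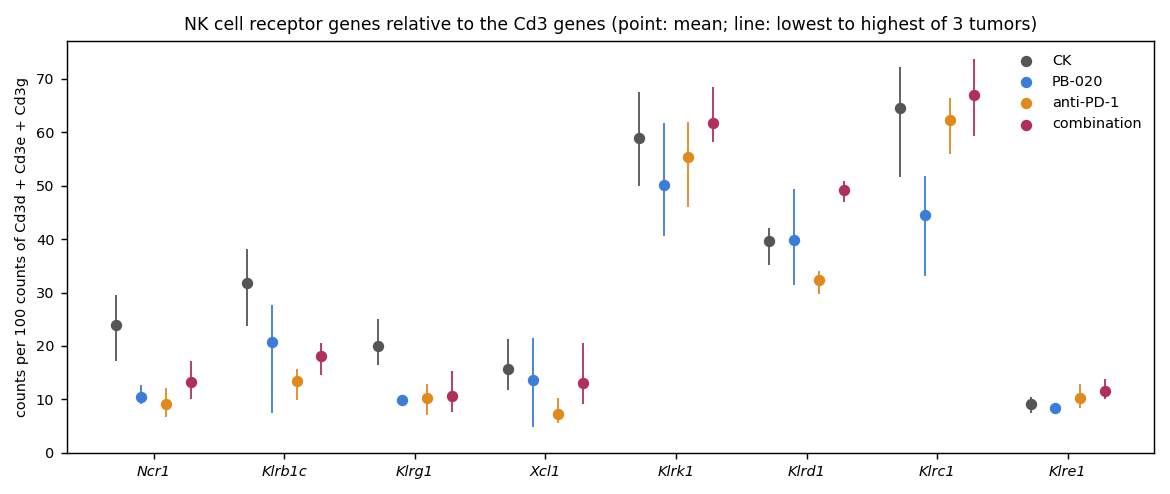
Expected counts per 100 counts of Cd3d, Cd3e and Cd3g (y axis) for 8 of the genes (x axis) in each group, with points for means and lines from the lowest to the highest of 3 tumors. Ncr1 has a mean of 23.9 in CK and of 9.13 to 13.2 in the treated groups, and Klrk1 stands at 58.9 in CK and 61.7 in the combination. Klrd1 stands at 39.7 in CK, 39.9 with PB-020, 32.3 with anti-PD-1 and 49.2 in the combination.

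Across the 12 tumors, log2 CPM values of Klrk1 and Klrc1 had a Pearson correlation of 0.981, Klre1 and Cd3e one of 0.96, and Ncr1 and Klrb1c one of 0.836. With Cd3e, the correlation of Ncr1 was 0.711 and that of Eomes -0.208. The tumors share their groups, so these values describe the libraries and carry no test. The genes outside the list most like the mean of the 9 genes were H2-Aa (0.958), Cytip (0.951), Cst7 (0.948), Mcpt2 (0.946) and Cd86 (0.945), over 12 tumors. Those most like Ncr1 alone were Gbgt1 (0.933), Mroh6 (0.905), Siglech (0.897), Pappa2 (0.892) and Tnfrsf25 (0.889). Ncr1 itself had a correlation of 0.865 with the mean of the other tested genes of the list.

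The other genes of the NK receptor system were grouped into 6 lists of 108 symbols, of which 103 were in the table and 93 were tested. In the combination 37 of the 93 rose and 2 fell against CK, where 8.35% of all genes rose and 9.6% fell. With anti-PD-1 alone 21 rose and 1 fell, where 4.18% rose and 4.08% fell, and with PB-020 alone none passed edgeR's test, where 0.0% did. The called total of 39 in the combination was 16 without CK tumor 2, 22 without combination tumor 1, 18 without combination tumor 2 and 24 under a stricter filter on counts. Over all genes, 2434 were called in the reported fit and 864, 1085, 1160 and 2425 in those fits, in the same order. The called total of 22 with anti-PD-1 was 10 without CK tumor 1, 0 without CK tumor 2, 10, 39 and 8 without anti-PD-1 tumors 1, 2 and 3, and 0 with only these groups fitted. Over all genes these calls numbered 1120 in the reported fit and 748, 137, 625, 1905, 238 and 3 in those fits, in the same order. Many of these genes are shared with T cells, and none of the lists separates the cell types.

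Among the other NK receptors, 11 of 25 tested genes rose in the combination and 4 with anti-PD-1, with a median log2 change of 1.27 in the combination. Klra2, a receptor of the Ly49 family, rose from 3.81 ± 1.42 to 9.32 ± 0.781 FPKM (SD, n = 3; edgeR adjusted p = 0.00312). Cd27, a costimulatory receptor of immature NK cells and T cells, rose from 0.50 ± 0.234 to 2.06 ± 0.197 FPKM (edgeR adjusted p = 0.00596). Cd226, the activating receptor DNAM-1, rose from 0.197 ± 0.0971 to 0.963 ± 0.24 FPKM (edgeR adjusted p = 0.007). The Ly49 genes Klra4 and Klra7 rose too, 1.63-fold and 2.84-fold, whereas Klra1, Klra3, Klra5, Klra6 and Klra8 did not pass, with log2 changes from 0.04 to 1.33. The Ly49 genes are near-identical in parts, so reads may have been divided between them.

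Of the receptor adaptors and proximal signaling genes, 3 of 14 rose in the combination and 3 with anti-PD-1. In the combination they were Lat, Cd247 and Lck, by 1.60, 1.52 and 1.24 on the log2 scale (edgeR adjusted p = 0.00781, 0.00802 and 0.00871), which serve the T cell receptor as well. Lck rose from 2.28 ± 0.508 to 5.24 ± 0.504 FPKM (SD, n = 3). The adaptors of NKG2D did not pass: Tyrobp had a log2 change of 0.52 ± 0.22 (edgeR adjusted p = 0.123) and Hcst one of 0.14 ± 0.49 (edgeR adjusted p = 0.869).

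Of the ligands and counter-receptors, 2 of 14 rose in the combination and 0 with anti-PD-1, and their median log2 change was 0.19. With 8.35% and 4.18% of all genes raised, these counts are near the background. Cd48, the ligand of the NK receptor 2B4 and a molecule of most leukocytes, rose from 10.9 ± 2.48 to 22.9 ± 2.81 FPKM (SD, n = 3; edgeR adjusted p = 0.00697), and Xcr1 was the other. The tested NKG2D ligands were Raet1d, Raet1e, H60c and Ulbp1, with log2 changes of 0.24 ± 0.22, -0.06 ± 0.13, -0.09 ± 0.38 and -0.001 ± 0.18, none of which passed. Pvr and Nectin2, ligands of Cd226, had values of 0.13 ± 0.11 and 0.08 ± 0.09. So Klrk1 and Cd226 transcripts were higher in the combination while no tested transcript of their ligands passed.

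The NK transcription factors were divided, with 5 of 12 raised and 1 lowered in the combination, and the same counts with anti-PD-1. Zeb2, a factor of terminal NK and T cell maturation that macrophages also express, fell from 32.9 ± 3.0 to 23.1 ± 0.75 FPKM (SD, n = 3; log2 change -0.50 ± 0.07, edgeR adjusted p = 0.0023). Ikzf3, the Ikaros family factor Aiolos, rose from 0.397 ± 0.105 to 1.29 ± 0.14 FPKM (edgeR adjusted p = 0.0123). Zeb2 is expressed far above the listed NK genes in these tumors.

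Of the effectors and chemokines, 7 of 14 rose in the combination and 5 with anti-PD-1, and none fell. Serpinb9, which protects killer cells from granzyme B, rose from 13.8 ± 1.61 to 23.1 ± 0.708 FPKM (SD, n = 3; edgeR adjusted p = 0.00336). In CK tumors Serpinb9 had 504 to 623 expected counts, beside 19 to 32 for Ncr1 and 13 to 15 for Ifng. Which cells its transcripts came from was not tested. Ifng rose from 0.757 ± 0.0551 to 3.18 ± 1.01 FPKM (edgeR adjusted p = 0.00945), and Tnfsf10, the death ligand TRAIL, from 0.807 ± 0.324 to 1.96 ± 0.269 (edgeR adjusted p = 0.0138). The main cytotoxic proteins had values of 0.79 ± 0.41 for Gzmb and 0.21 ± 0.49 for Prf1 on the log2 scale and did not pass (edgeR adjusted p = 0.212 and 0.795).

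Of the growth cytokines and receptors, 9 of 14 rose and 1 fell in the combination, and 4 rose with anti-PD-1. Il18rap and Il18r1, the chains of the IL-18 receptor, rose from 2.66 ± 0.498 to 5.75 ± 0.299 FPKM and from 0.583 ± 0.0252 to 1.88 ± 0.259 FPKM (SD, n = 3; edgeR adjusted p = 0.0066 and 0.0158). Il12rb2 rose from 0.53 ± 0.0608 to 1.30 ± 0.0551 FPKM (edgeR adjusted p = 0.0167), and the cytokine gene Il15, which sustains NK cells, by 0.49 ± 0.16 on the log2 scale (edgeR adjusted p = 0.0477). Cx3cr1, a chemokine receptor of mature NK cells and of monocytes and macrophages, fell by 0.77 on the log2 scale (edgeR adjusted p = 0.0388). Il2rb, the shared receptor chain for IL-2 and IL-15, had a log2 change of 0.92 ± 0.37 and did not pass (edgeR adjusted p = 0.112).

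**Figure D5:**
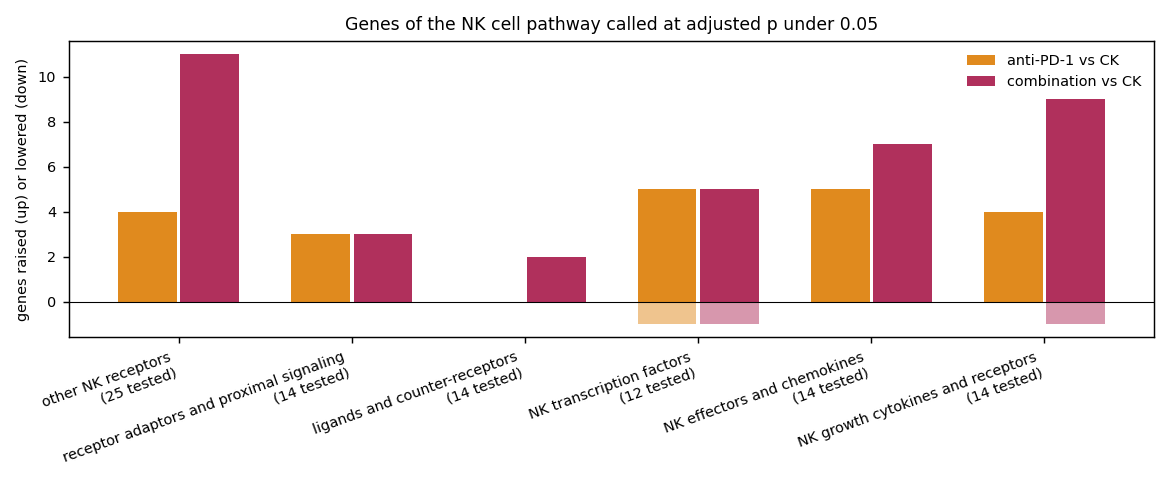
Number of genes raised (above 0) or lowered (below 0, paler) at an adjusted p under 0.05 (y axis) in each of 6 lists (x axis, with the number tested) for anti-PD-1 and the combination against CK. The other NK receptors hold 11 raised genes in the combination and 4 with anti-PD-1, and the ligands 2 and 0.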

How the data were processed

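RNA of 12 MC38 tumors, 3 in each of 4 groups given by the labels, was sequenced on an Illumina HiSeq X instrument (paired, 150 bases). Alignment by the authors used Bowtie2 and quantification RSEM (versions not given in the sources used here). Per the submitters' processing notes the build was GRCm38.p6 and HISAT was a further tool, whose role is not stated. The authors deposited RSEM expected counts (estimated counts, not normalized, 91.0% of them whole), FPKM values (per effective length and library total) and TPM values (scaled to a fixed library sum). The authors' group averages were not used.

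Expected counts were rounded, filtered with filterByExpr of edgeR 4.0.16 (R 4.3.3; minimum count 10), scaled by TMM and fitted with a robust quasi-likelihood model of 4 group means to all 12 libraries. Tests were two-sided, with Benjamini-Hochberg adjustment over 13563 genes and calls at an adjusted p under 0.05. The computation was tested on simulated data. Depth was 16545394 to 17217035 expected counts, and SEs cover counting error and tumor-to-tumor spread.

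Alternatives were DESeq2 1.42.0, limma 3.58.1 on log2(FPKM + 1) and log2(FPKM + 0.1), no filter and a filter at a mean count of 50, scaling by library size, the replicate number as a block, the compared groups alone, each library left out, and a rule of fold over 1.5 with unadjusted p under 0.05. The other T cell denominators, and all alternatives for the 6 pathway lists, were chosen after seeing the data.

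All 10 genes are named, with up to 3 genes per pathway list (smallest p in the combination among those called) and the 5 genes most correlated with the mean and with Ncr1. Other pathway genes, T cell markers and chromosome 6 neighbours are named after their values were seen. The 10 genes and the lists were chosen with earlier results of these data known. Coordinates are 1-based RefSeq positions on GRCm38.p6, 18091 of 18211 genes having matched. Promoters are from RefSeq and Klrc coding ends from GENCODE M21, and motifs were searched on both strands.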

Additional observations from a re-analysis of the deposited data

How the results depend on the processing

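For the 9 tested genes, 171 of 175 log2 changes of the combination against CK kept their direction and their side of the threshold, as did 155 of 175 with anti-PD-1. Counts of genes called moved as follows. Anti-PD-1 against CK (3) gave 0 with only these groups fitted and 0 to 4 with 1 library left out. The combination against CK (4) gave 7 with only these groups fitted and 7 under the fold rule, and 4 with any library left out. The combination against PB-020 (4) gave 2 with the replicate block and 0 to 6 with 1 library left out. The combination against anti-PD-1 and the interaction (0 each) gave 1 each under the fold rule. The pathway lists gave, for anti-PD-1 (22), 36 by DESeq2, 14 under the strict filter, 0 with only these groups fitted and 0 to 39 with 1 library left out, and for the combination (39), 24 under the strict filter and 16 to 55 with 1 library left out. The number of all genes called moved too, for anti-PD-1 from 1120 to 1668 by DESeq2 and to 3 with only the compared groups fitted. For the combination against CK it moved from 2434 to 2988 with only the compared groups fitted. The strict filter tests fewer genes. For the other shifts the cause was not tested. With 1 library left out, the anti-PD-1 log2 changes ran from -0.299 to 0.468 for Ncr1 and from -0.26 to 0.749 for Klrb1c (both lowest without anti-PD-1 tumor 1) and from -0.014 for Xcl1 (without CK tumor 2) to 0.753, and that of Eomes in the combination from -0.213 to 0.04 (without CK tumor 2). None of these 4 passed at either end.

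Tumors of the same number did not deviate together: over 18 pairs the correlation was -0.21 to 0.289 (median -0.037), 2 were over 0.1, and 2 of 12 tumors correlated best with their own number. The replicate block changed the count to 2 for the combination against PB-020 and moved no other count of the 9 genes by over 1.5 times. Klre1, Ncr1, Klrg1 and Xcl1 had 8 to 47 counts per tumor, and the part of depth in their results was not tested. Klrc2, without a filter, had a log2 change of 1.48 in the combination (edgeR adjusted p = 0.36).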
